A study of Rattus norvegicus with 6 samples.

Results

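The genes examined here encode the enzymes that write and erase DNA methylation and the proteins that read it. They were chosen by symbol: *Dnmt1*, *Dnmt3a*, *Dnmt3b* and *Uhrf1* for the writers, *Tet1*, *Tet2* and *Tet3* for the erasers, and *Mbd2* and *Mbd3* for the readers. Of these 9 symbols, 6 were listed in the 4 expression tables, which hold 17337 gene names in all. *Tet1*, *Tet2* and *Tet3* were not listed in the tables used here, so that the levels of the erasers were not analysed. Levels were measured by sequencing of polyA RNA from neural progenitors, which were grown from the cortices of Sprague Dawley rat embryos of either sex at embryonic day 14. The cells were cultured with StemPro supplement and with bFGF and EGF at 20 ng/ml each, received no further treatment and were harvested after the second passage. There were 2 biological replicates, A and B, of this single condition, each sequenced as 2 technical libraries (A1 and A2, B1 and B2). The 2 samples of Start-seq, which maps the 5′-ends of short capped nuclear RNA, were not analysed here.

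In mammals DNA methylation is the addition of a methyl group to cytosine, mostly where the cytosine is followed by guanine (CpG). DNMT3A and DNMT3B set new marks, whereas DNMT1, brought to newly copied DNA by UHRF1, restores the marks of the old strand on the new one after each round of replication. TET enzymes oxidize the methyl group, which opens a path to its removal. MBD2 binds methylated CpG and joins the NuRD complex, which combines histone deacetylase and chromatin remodelling activities. MBD3 takes the same place in NuRD but has largely lost the preference for methylated DNA in mammals. In the developing cortex DNMT1 protects dividing progenitors from loss of methylation, and DNMT3A becomes prominent as neurons mature.

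In rn6, the build of the tables, *Dnmt1* lies on the minus strand of chromosome 8 (chr8:21922515-21968495) and *Uhrf1* on the minus strand of chromosome 9 (chr9:10739306-10758403). *Dnmt3a* is on the plus strand of chromosome 6 (chr6:28235695-28340577) and *Dnmt3b* on the plus strand of chromosome 3 (chr3:149131541-149170061). *Mbd2* is on the plus strand of chromosome 18 (chr18:65814026-65885115) and *Mbd3* on the plus strand of chromosome 7 (chr7:12179046-12186248). Each had 1 locus in the tables, and 0 other listed genes overlapped its span.

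The DNA before the start sites of these genes is shown first because it holds CpG, the substrate of the enzymes that they encode. RefSeq windows from 250 bases before to 50 bases after a start, in build GRCr8, matched 5 of the 6 listed genes, with 3 starts for *Uhrf1*. *Dnmt3b* was not matched. The paper moved many RefSeq starts of rn6 by Start-seq in these cells. Which starts the cells use for these genes was not examined here, so positions are given from the RefSeq start. The 100 bases before the start are printed 5′ to 3′ on the strand of the gene, with each CpG in capitals. They come from chr8:27762842-27762941 (minus strand) for *Dnmt1*, from chr9:1221963-1222062 (plus strand in this build) for the most upstream start of *Uhrf1*, from chr6:32598502-32598601 (plus) for *Dnmt3a*, from chr18:66449258-66449357 (plus) for *Mbd2* and from chr7:9963540-9963639 (plus) for *Mbd3*.
Dnmt1: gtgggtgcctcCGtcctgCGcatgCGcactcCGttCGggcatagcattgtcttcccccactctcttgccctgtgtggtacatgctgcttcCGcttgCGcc
Uhrf1: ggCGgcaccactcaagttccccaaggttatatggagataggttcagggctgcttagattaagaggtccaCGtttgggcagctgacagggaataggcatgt
Dnmt3a: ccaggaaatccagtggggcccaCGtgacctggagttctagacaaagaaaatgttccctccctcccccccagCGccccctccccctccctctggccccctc
Mbd2: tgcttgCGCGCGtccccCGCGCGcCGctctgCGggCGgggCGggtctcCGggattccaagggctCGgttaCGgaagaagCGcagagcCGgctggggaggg
Mbd3: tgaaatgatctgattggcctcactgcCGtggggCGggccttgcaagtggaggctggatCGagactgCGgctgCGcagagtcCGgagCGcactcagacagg

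In these 100 bases *Mbd2* had 15 CpG, *Dnmt1* and *Mbd3* had 7 each, and *Dnmt3a* and the upstream start of *Uhrf1* had 2 each. Over the whole window the number was 39 for *Mbd2*, 23 for *Mbd3*, 21 for *Dnmt3a* and 17 for *Dnmt1*. The 3 windows of *Uhrf1* held 8, 13 and 35 CpG from the most upstream to the most downstream start. The median over 33365 distinct windows was 7, so that all 7 windows of these listed genes lay above it. The erasers, whose levels were not listed, also had windows. These held 3, 16 and 4 CpG for *Tet1*, 39 for *Tet2* and 15, 23, 3 and 3 for *Tet3*. Those with 3 or 4 CpG lay below the median. The ratio of observed to expected CpG, which takes the content of C and G into account, was 0.956 for *Mbd2*, 0.801 for *Mbd3*, 0.583 for *Dnmt1*, 0.535 for *Dnmt3a* and 1.07 for the third window of *Uhrf1*, against a median of 0.393. It was 0.369 for the first window of *Uhrf1*, below that median, and 0.492 for its second.

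The windows were also searched on both strands for letters bound by E2F, the factor that turns on genes for DNA replication (TTTCGCGC, TTTGGCGC or TTTCCCGC), for the GC box (GGGCGG) and for CCAAT. All 3 E2F words and the GC box contain CpG, and the CpG of a match are counted above. E2F letters occurred in the window of *Dnmt1* and, at 2 places, in the third window of *Uhrf1*, and in 1.73% of all windows. These sites are shown as 30 bases each with the match in capitals, because E2F letters were found for the maintenance pair and in no window of *Dnmt3a*, *Mbd2* or *Mbd3*. They lie at chr8:27762798-27762827 for *Dnmt1* and at chr9:1222982-1223011 and chr9:1223076-1223105 for *Uhrf1*. The match of *Dnmt1* is on the opposite strand and starts at base 26 from the RefSeq start.
Dnmt1 site: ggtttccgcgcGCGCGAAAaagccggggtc
Uhrf1 site at -193: ccgctaagttcGCGGGAAActcgcgcggtc
Uhrf1 site at -99: cccgagtcgggTTTCGCGCgccctggcgtc

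Of a list of S phase genes, 19 had a window, and 10 of these (52.6%) held the same E2F letters in at least 1 window, against 529 of all 27370 genes with a window (1.93%). The GC box occurred in all 7 windows of the listed methylation genes, with 5 matches for *Mbd3* and 4 for *Mbd2*, and in 33.1% of all windows. Of the eraser windows, it occurred in that of *Tet1* with 3 CpG, that of *Tet2* and that of *Tet3* with 15 CpG only. Among the listed genes, CCAAT was found in the windows of *Dnmt1*, *Uhrf1* and *Mbd3*, and it occurred in 37.5% of all windows. A match of letters is a description of the sequence, and binding was not measured.

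**Figure D1:**
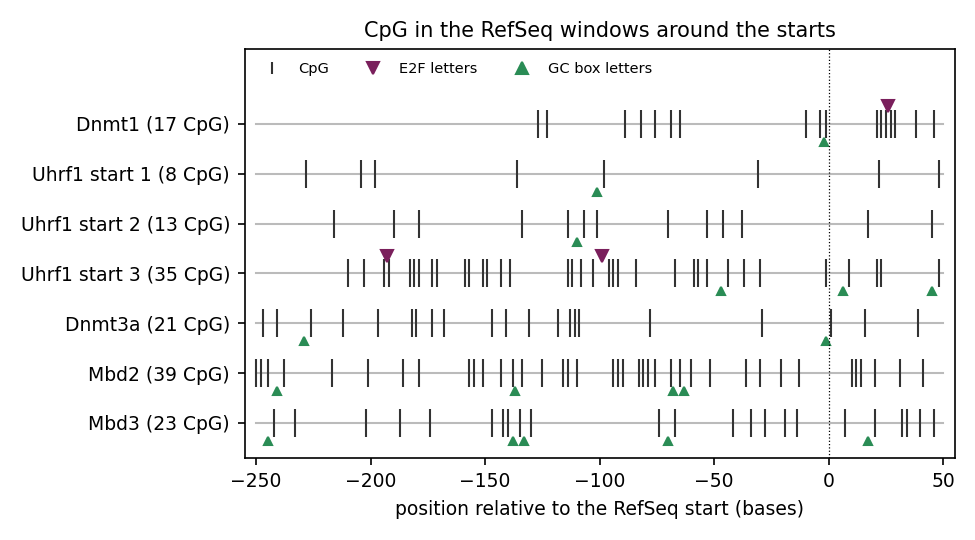
Positions of CpG (vertical marks) in the 7 RefSeq windows of 5 genes, in bases from the start, with matches to E2F letters (triangles above the line) and to the GC box (triangles below). The number of CpG runs from 8 at the first start of Uhrf1 to 39 for Mbd2, and E2F letters are seen only for Dnmt1 and the third start of Uhrf1.

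The reader genes were the most abundant and the de novo writer *Dnmt3b* the least abundant of the 6. Each of the 6 was above 0 in the 4 libraries, and their means were all above 1 FPKM (fragments scaled to transcript length and library depth, so that genes can be compared). The level of 10 FPKM was reached by 3 of them, *Mbd3*, *Mbd2* and *Dnmt1*. Means and SD are over the 2 biological replicates after the technical libraries were averaged. From *Mbd3* to *Dnmt3b* the mean level fell 77.4-fold. The median level of the 6 genes was 12.6 FPKM, beside 16.6 FPKM for the 10481 genes of the tables with a mean of at least 1 FPKM.

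*Dnmt1*, the maintenance methyltransferase, had 16.2 and 14.9 FPKM in libraries A1 and A2 and 17.7 and 21.3 FPKM in B1 and B2. Both libraries of B were above both of A. The mean was 17.5 ± 2.77 FPKM (SD, n = 2), which placed the gene at rank 5067 of the 17337 names. *Uhrf1*, the partner that directs DNMT1 to hemimethylated DNA, had 3.10 and 2.73 FPKM in A1 and A2 and 3.06 and 7.73 FPKM in B1 and B2. Library B2 stood apart from the other 3 libraries, which lay close together. The mean was 4.15 ± 1.75 FPKM (SD, n = 2; rank 8505).

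*Dnmt3a*, the de novo methyltransferase of later neural development, had 9.25 and 8.31 FPKM in A1 and A2 and 4.48 and 8.99 FPKM in B1 and B2, with a mean of 7.76 ± 1.44 FPKM (SD, n = 2; rank 7245). Here B1 was the low library, while B2 fell between A1 and A2. The deposited coverage of *Dnmt3a* per unit of FPKM was only 0.478 to 0.494 of the median of its library, whereas it equalled that median for the other 5 genes. A ratio under 0.9 was found for 2.57% to 2.81% of the rows above 0. *Dnmt3b*, the de novo enzyme known mainly from the early embryo, had 2.17 and 2.00 FPKM in A1 and A2 and 2.08 and 1.59 FPKM in B1 and B2, a mean of 1.96 ± 0.176 FPKM (SD, n = 2; rank 9673). B2 was its lowest library, with a coverage of 10.8, and A and B overlapped.

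*Mbd3* had 134 and 150 FPKM in A1 and A2 and 161 FPKM in both B1 and B2, a mean of 151 ± 13.4 FPKM (SD, n = 2; rank 670), with both libraries of B above both of A. *Mbd2* had 51.2 and 56.3 FPKM in A1 and A2 and 49.1 and 63.8 FPKM in B1 and B2, a mean of 55.1 ± 1.90 FPKM (SD, n = 2; rank 1991). The libraries of B lay on either side of those of A.

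**Figure D2:**
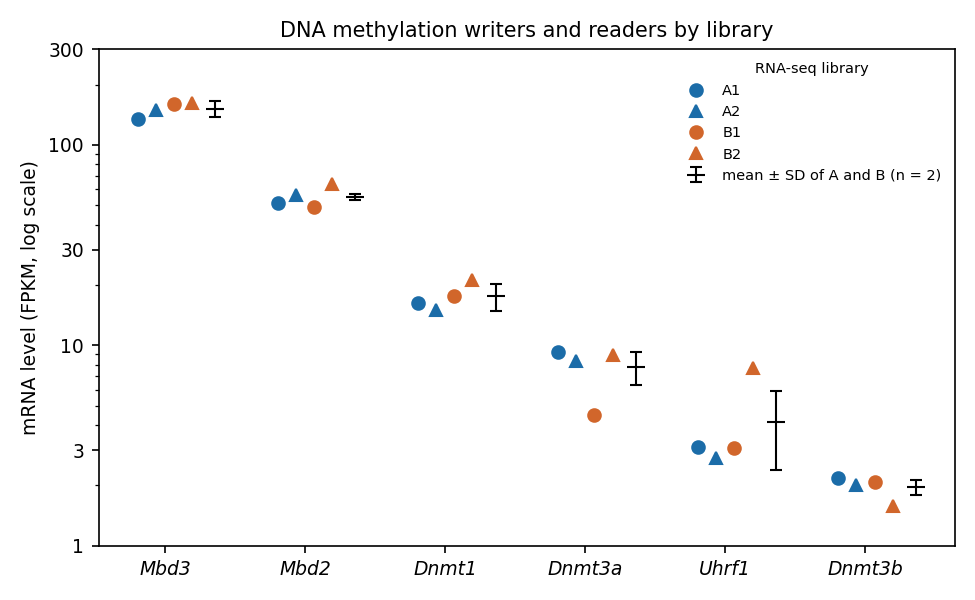
mRNA level (FPKM, log axis) of the 6 listed genes in libraries A1, A2 (blue) and B1, B2 (orange), with the mean ± SD of replicates A and B (n = 2, black). The order from Mbd3 (mean 151 FPKM) to Dnmt3b (mean 1.96 FPKM) is the same in each library by FPKM, and the B1 point of Dnmt3a and the B2 point of Uhrf1 lie away from the others.

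The order *Mbd3*, *Mbd2*, *Dnmt1*, *Dnmt3a*, *Uhrf1*, *Dnmt3b* was the same in all 4 libraries by FPKM. By the deposited coverage, on which *Dnmt3a* is about 2 times lower against the other genes, this order held in the 2 libraries of A, whereas in B *Uhrf1* lay above *Dnmt3a* (74.4 against 52.2 in B1 and 52.8 against 30.4 in B2). Neighbours in this order did not overlap over the 4 libraries in 4 of 5 pairs. The exception was *Dnmt3a* and *Uhrf1*, where the lowest library of *Dnmt3a* (4.48 FPKM, B1) was below the highest of *Uhrf1* (7.73 FPKM, B2). Without B2, all 5 pairs were apart. The ratio of *Dnmt3a* to *Uhrf1* was 2.99 and 3.05 in A1 and A2 and 1.47 and 1.16 in B1 and B2.

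Within the families the ratios had the same direction in each library but not the same size. *Dnmt3a* exceeded *Dnmt3b* 4.27-fold in A1, 4.16-fold in A2, 2.16-fold in B1 and 5.67-fold in B2, which is a mean log2 ratio of 1.94 ± 0.19 (SD, n = 2). The SD was small because B1 and B2, which lay on either side of A, were averaged. By deposited coverage *Dnmt3a* exceeded *Dnmt3b* only 2.11-fold and 2.06-fold in A1 and A2 and 1.03-fold and 2.80-fold in B1 and B2. *Dnmt1* exceeded *Dnmt3a* 1.76-fold in A1, 1.79-fold in A2, 3.95-fold in B1 and 2.37-fold in B2 (mean log2 ratio 1.22 ± 0.55), and by coverage 3.55-fold, 3.63-fold, 8.26-fold and 4.79-fold. *Dnmt1* exceeded *Uhrf1* 5.25-fold, 5.47-fold and 5.79-fold in A1, A2 and B1 and 2.75-fold in B2 (2.21 ± 0.30). *Mbd3* exceeded *Mbd2* 2.62-fold and 2.66-fold in A1 and A2 and 3.28-fold and 2.53-fold in B1 and B2 (1.46 ± 0.09).

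Taken as shares of the summed FPKM of the 3 methyltransferases, *Dnmt1* made up 58.7% and 59.1% in A1 and A2 and 73.0% and 66.8% in B1 and B2. *Dnmt3a* made up 33.4% and 33.0% in A and 18.5% and 28.2% in B. *Dnmt3b* stayed below 10% in every library, with 7.84% and 7.92% in A and 8.57% and 4.98% in B. The share of *Dnmt1* was thus higher, and that of *Dnmt3a* lower, in both libraries of B than in both of A. By coverage the share of *Dnmt3a* was smaller, 19.9% and 19.5% in A and 9.77% and 16.3% in B. The direction between A and B was the same, which is no separate evidence. Coverage per FPKM of *Dnmt3a*, against the median of its library, was nearly the same in the 4 libraries.

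*Dnmt1* and *Mbd3* were the genes whose libraries of B lay above those of A without overlap. On the scale log2(FPKM + 1), which understates changes of low genes, B exceeded A by 0.31 for *Dnmt1* (1.25-fold in FPKM) and by 0.18 for *Mbd3* (1.13-fold). These 2 of 6 genes compare with 28.1% of the 10481 genes tested that did not overlap and were higher in B. None of the 6 lay wholly higher in A, beside 32.0% of all genes. In either direction the count was 2 of 6, beside 60.1% of all genes. With the further requirement of a log2 difference of at least 1, 0 of the 6 were counted, beside 4.78% of all genes higher in B and 1.42% higher in A. With 2 replicates of 1 condition there was no test, and these counts describe the libraries only.

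For the other 4 genes A and B overlapped. The log2 difference of B from A was 0.71 for *Uhrf1*, 0.07 for *Mbd2*, -0.12 for *Dnmt3b* and -0.34 for *Dnmt3a*. The median over the 6 genes was 0.12, and over all genes tested -0.03. Which library was left out decided several of these values: for *Uhrf1* the difference was 0.05 without B2 and 1.16 without B1, and for *Dnmt3a* it was -0.83 without B2 and 0.03 without B1. *Dnmt1* and *Mbd3* were higher in B without overlap in all 4 settings that left out 1 library. That outcome was fixed by construction and shows nothing of stability. Where all libraries of B lie above all of A, leaving out a library cannot create overlap. *Mbd2* did not overlap and was higher in A without B2 and higher in B without B1. Without B1, 4 of the 6 genes were higher in B and 1, *Dnmt3b*, was higher in A, beside 40.7% and 47.4% of all genes.

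**Figure D3:**
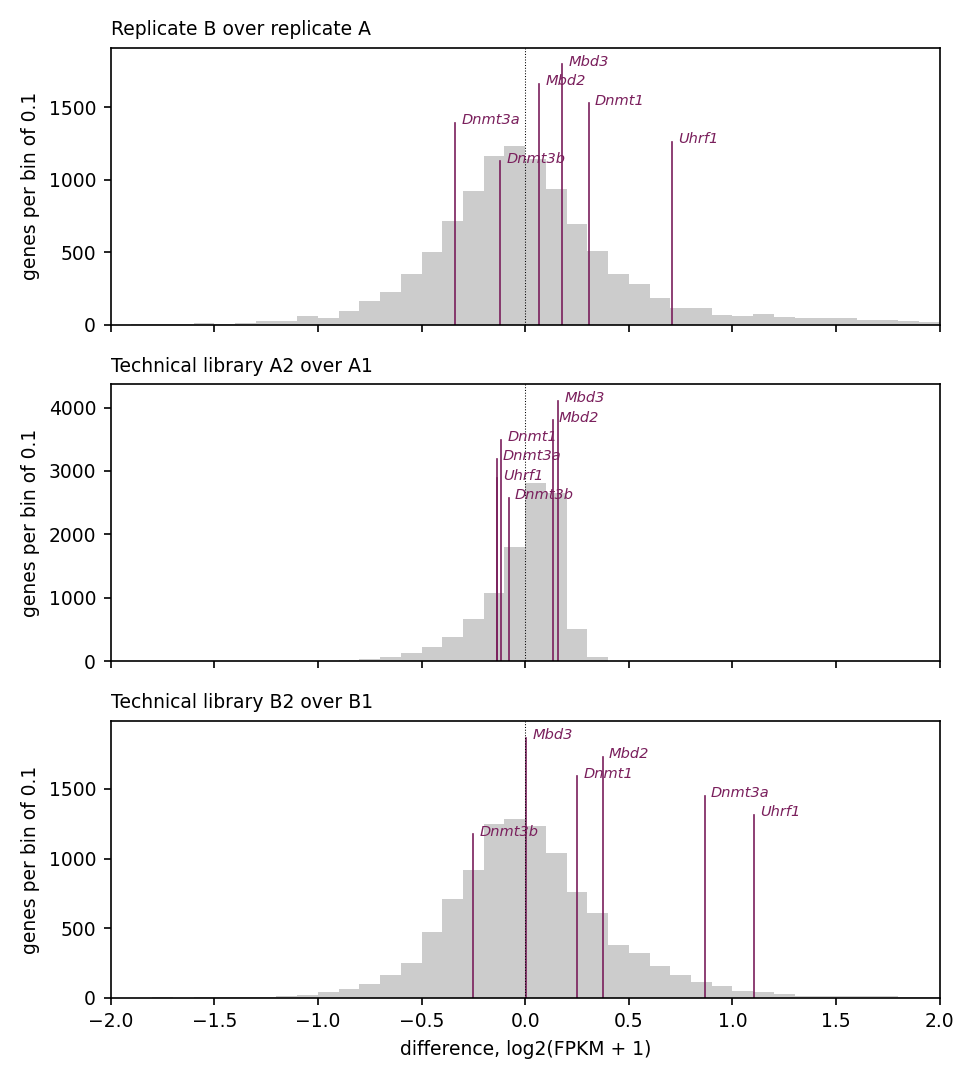
Differences on the log2(FPKM + 1) scale between replicates B and A (top), technical libraries A2 and A1 (middle) and B2 and B1 (bottom), as histograms over 10481 genes in bins of 0.1, with the 6 methylation genes as vertical lines whose heights carry no value. In A the 6 lines stay within 0.16 of 0, while Uhrf1 reaches 1.11 and Dnmt3a 0.87 between B1 and B2.

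The technical libraries of A gave like levels and those of B did not. A2 over A1 ranged from 0.881-fold for *Uhrf1* to 1.12-fold for *Mbd3*. A2 was the higher library for *Mbd2* and *Mbd3* only, beside 57.9% of all genes tested. B2 over B1 was 2.53-fold for *Uhrf1*, 2.01-fold for *Dnmt3a*, 1.30-fold for *Mbd2*, 1.20-fold for *Dnmt1* and 0.762-fold for *Dnmt3b*, while *Mbd3* was nearly the same in both (161 FPKM). B2 was thus the higher library for 5 of the 6 genes, beside 49.1% of all genes tested. On the scale log2(FPKM + 1), where *Dnmt3a* differed by 0.87, *Uhrf1* alone of the 6 differed by at least 1 (1.11). This compares with 2.02% of all genes higher in B2 and 0.773% lower by at least 1. Between A2 and A1 only 0.0286% and 0.124% of all genes differed that far. B2 was also the shallowest library, with a coverage of 6.83 for 1 FPKM, beside 22.7 to 24.4 in the others. Of 16 mesenchymal and meningeal markers, 13 were also higher in B2 than in B1, 5 of them by a log2 value of at least 1, and their summed level was 3142 FPKM in B1 and 4480 FPKM in B2. The part of depth and of these markers in the values of *Uhrf1* and *Dnmt3a* was not tested.

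The genes whose profile over the 4 libraries was most like that of *Uhrf1*, by the root mean square distance of centred log2(FPKM + 1) values, were *C1s* (0.034), *Phlda1* (0.051), *Plekha4* (0.054), *Slc22a8* (0.061) and *Lhb* (0.062). *C1s*, a protease of the complement system, had 8.06, 7.61 and 7.91 FPKM in A1, A2 and B1 and 17.9 FPKM in B2. *Phlda1* had 70.5, 70.1 and 70.3 FPKM in A1, A2 and B1 and 155 FPKM in B2. *Slc22a8*, an organic anion transporter, had 0.856, 0.765 and 0.943 FPKM in A1, A2 and B1 and 2.76 FPKM in B2. In each of these the raised library was B2 alone, which follows from their choice by likeness to *Uhrf1*. There were 16 of 10480 genes within a distance of 0.1, and with 4 libraries the likeness is a description only.

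S phase genes were compared because DNMT1 and UHRF1 act at the replication fork. Of 24 such genes 23 were listed, all at 1 FPKM or more, and 13 were higher in B without overlap and 3 higher in A, beside 28.1% and 32.0% of all genes tested. Their median log2 difference of B from A was 0.31, which was also the value of *Dnmt1*. *Mcm6*, a subunit of the replicative helicase, had 11.4 and 12.4 FPKM in A and 20.2 and 21.9 FPKM in B. *Tyms*, which makes thymidylate, had 2.59 and 2.55 FPKM in A and 5.84 and 4.77 FPKM in B. Not all members followed: *Mcm7* of the same helicase had 95.9 and 93.6 FPKM in A and 78.4 and 73.9 FPKM in B, and *Pcna*, the sliding clamp to which DNMT1 binds, had 129.3 and 144 FPKM in A and 105 and 148 FPKM in B. *Rrm1*, a subunit of ribonucleotide reductase, had 31.0 and 33.1 FPKM in A and 29.1 and 47.6 FPKM in B. B2 exceeded B1 for 17 of the 23 genes, beside 49.1% of all genes tested, with a median log2 difference of 0.18 (0.25 for *Dnmt1*). The part of S phase in the levels of *Dnmt1* and *Uhrf1* was not tested.

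**Figure D4:**
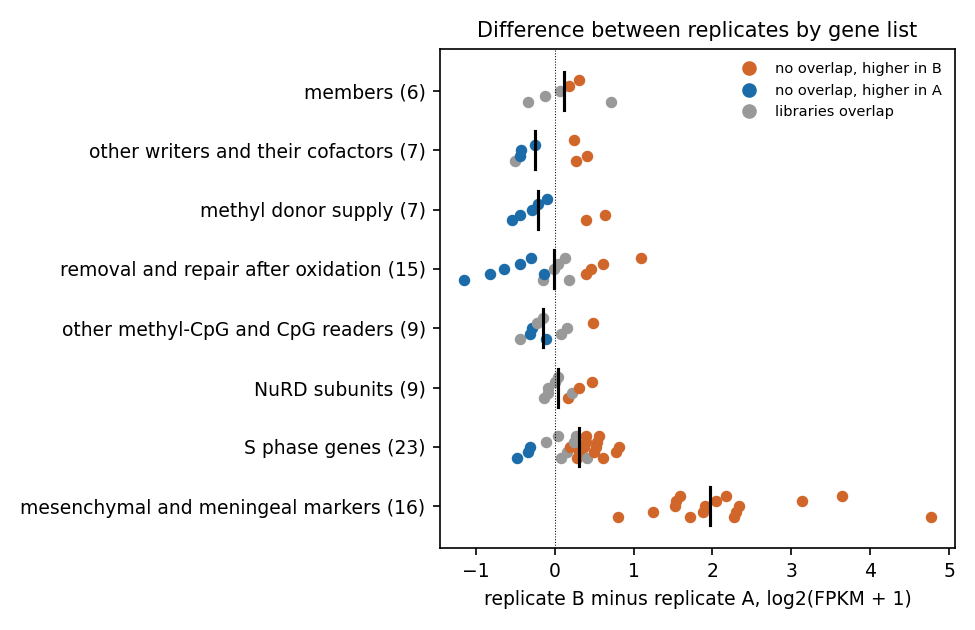
Difference of replicate B from A on the log2(FPKM + 1) scale for each gene with a mean of at least 1 FPKM, by list, with the number of genes in brackets and the median as a black bar. Orange and blue points are genes whose libraries did not overlap, higher in B or in A, and grey points overlapped. The methylation genes lie between -0.34 and 0.71, and the mesenchymal and meningeal markers all lie to the right, around a median of 1.97.

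Around these genes, 5 lists of the wider pathway held 62 names, of which 55 were listed, 47 reached a mean of 1 FPKM and 32 reached 10 FPKM. Of the 47, 13 were higher in B and 17 higher in A without overlap, shares near the 28.1% and 32.0% of all genes tested. A log2 difference of at least 1 was reached by 1 in each direction, beside 4.78% and 1.42% of all genes, and the median difference was -0.09. The counts of the single lists that follow stand beside the same 28.1% higher in B and 32.0% higher in A. Among 9 other writers and cofactors, 7 had at least 1 FPKM, and the exceptions were *Dnmt3l* and *Dppa3*, germ line and early embryo factors, with means of 0.017 and 0.054 FPKM. *Uhrf2*, the paralogue of *Uhrf1*, had 57.2 and 57.8 FPKM in A and 46.9 and 38.3 FPKM in B, which is above *Uhrf1* in every library. *Cdca7*, which recruits the remodeller HELLS to chromatin, had 57.4 and 53.9 FPKM in A and 47.5 and 34.1 FPKM in B. Both were thus higher in A, the direction opposite to that of *Dnmt1*. *Usp7*, a deubiquitinase that binds DNMT1 and UHRF1, had 48.8 and 34.2 FPKM in A and 36.0 and 21.9 FPKM in B, with overlap. In this list 3 genes were higher in B and 3 higher in A.

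The methyl donor, S-adenosylmethionine, is made by MAT2A, and AHCY removes the product that inhibits methyltransferases. Of 9 genes of this supply 8 were listed and 7 had at least 1 FPKM, of which 2 were higher in B and 5 higher in A. *Mat2a* had 36.6 and 27.9 FPKM in A and 21.4 and 22.6 FPKM in B. *Ahcy* differed the other way, with 31.8 and 34.4 FPKM in A and 44.3 and 44.0 FPKM in B. *Ahcyl1*, a relative of *Ahcy*, was the most abundant of the list with 91.6 and 91.5 FPKM in A and 86.8 and 84.0 FPKM in B. *Mtap*, of methionine salvage, had 1.83 and 1.77 FPKM in A and 3.86 and 2.88 FPKM in B.

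The levels of the TET genes were not analysed here. Of 20 genes that act beside or after oxidation of the methyl group, 18 were listed and 15 had at least 1 FPKM. Of these 15, 4 were higher in B and 6 higher in A. *Gadd45g*, of a stress-induced family linked to demethylation, was the most abundant, with 448 and 452 FPKM in A and 336 and 239 FPKM in B. Its relative *Gadd45b* was higher in B, with 6.26 and 6.62 FPKM in A and 10.4 and 19.3 FPKM in B. Both differed between replicates without overlap, in opposite directions. *Cxxc4*, whose protein binds TET2 and lowers its level, had 10.6 and 12.4 FPKM in A and 5.23 and 3.98 FPKM in B, whereas *Cxxc5* of the same family had 120 and 127 FPKM in A and 158 and 167 FPKM in B. *Idh2*, which makes the cosubstrate of TET enzymes, had 156 and 165 FPKM in A and 188 and 163 FPKM in B. *Cxxc4* and *Gadd45b* were the genes of the 5 lists with a log2 difference of at least 1, -1.15 and 1.09, and without B2 they were -0.998 and 0.61.

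Of the other readers of methylated or unmethylated CpG, 10 of 11 were listed and 9 had at least 1 FPKM, with 3 higher in A without overlap. *Mbd6* had 81.0 and 46.2 FPKM in A and 56.9 and 36.4 FPKM in B, so that the technical libraries of each replicate differed by more than the replicate means. *Cxxc1*, which binds unmethylated CpG, had 56.2 and 43.4 FPKM in A and 64.0 and 47.0 FPKM in B. *Kdm2a*, a histone demethylase with the same kind of domain, had 21.1 and 18.5 FPKM in A and 15.7 and 15.8 FPKM in B.

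NuRD subunits, the partners of MBD2 and MBD3, were abundant: 10 of 13 were listed, 9 had at least 1 FPKM and 8 at least 10 FPKM. The remodellers *Chd3* and *Chd4*, and *Mta3*, were not analysed here. *Cdk2ap1* had 318 and 361 FPKM in A and 395 and 287 FPKM in B. The deacetylase gene *Hdac2* had 170 and 169 FPKM in A and 175 and 144 FPKM in B, and the histone chaperone gene *Rbbp4* had 112 and 122 FPKM in A and 117 and 124 FPKM in B. All 3 overlapped between A and B. Levels without overlap and higher in B were found for 3 of the 9, a share near the 28.1% of all genes. Among them were *Rbbp7*, with 92.9 and 98.6 FPKM in A and 133 and 134 FPKM in B, and *Hdac1*, with 68.8 and 73.4 FPKM in A and 79.1 and 97.9 FPKM in B. None of the 9 was wholly higher in A, beside 32.0% of all genes.

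The label of the cells was checked against markers. All 11 listed markers of neural progenitors had at least 1 FPKM, with a summed level of 21182 and 23265 FPKM in A and 10196 and 10991 FPKM in B. Of these 11, 0 were higher in B and 6 higher in A without overlap, 2 of them by a log2 difference of at least 1. *Fabp7*, a marker of radial glia, accounted for most of it, with 16800 and 18557 FPKM in A and 6520 and 5485 FPKM in B. Markers of other cell types were present too. All 16 mesenchymal and meningeal markers were higher in B without overlap, 15 by a log2 difference of at least 1, with a summed level of 843 and 828 FPKM in A and 3142 and 4480 FPKM in B and none at 0. Of 7 oligodendrocyte lineage markers 5 had at least 1 FPKM, with 3 higher in B and 1 higher in A and a summed level of 264 and 290 FPKM in A and 702 and 360 FPKM in B. *Pdgfra* of this list, also a gene of mesenchyme, had 9.50 and 9.09 FPKM in A and 59.5 and 59.4 FPKM in B. The 9 neuron markers with at least 1 FPKM had 0 higher in B and 6 higher in A. All these marker counts compare with 28.1% of all genes higher in B and 32.0% higher in A, and with 4.78% and 1.42% by a log2 difference of at least 1. No microglial or endothelial marker had a mean of 1 FPKM, and 4 of 6 microglial markers were at 0 in at least 1 library. The mesenchymal markers were higher in both libraries of B, as were *Dnmt1* and *Mbd3*, and their part in those values was not tested. *Uhrf1* exceeded both of its levels in A only in B2. In bulk RNA, fewer cells of a type and less RNA per cell cannot be told apart.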

How the data were processed

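PolyA RNA-seq tables of 2 biological replicates (A, B), each with 2 technical libraries, were used, grouped by the sample labels. STAR was used by the authors for alignment to rn6. Deposited FPKM and TPM values were taken unchanged. Coverage, as deposited, is the average read depth over a gene and is unscaled. The tables are laid out as StringTie writes them, while the methods name Rsubread and DESeq2 for FPKM, and versions are not given in the sources used here. FPKM was summed over rows of a gene name. Technical libraries were averaged within replicates, and the mean and SD are over 2 replicates. Genes whose mean reached 1 FPKM were compared between A and B by overlap of their libraries and by log2(FPKM + 1). No replicated contrast exists, so that nothing was tested. The depth is given as coverage per FPKM, since read totals were not used, and no counting interval was possible. The counting step was checked on simulated libraries, but no result of that check is given and none of the counts here rests on it.

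The members and lists were chosen with earlier results of these data known. Named are all members, the 3 highest genes and the 2 with the largest difference of each list, the 5 genes nearest in profile to the member that differed most between A and B, and, after their values were seen, *Dnmt3l*, *Dppa3* and genes not listed. Of the markers, only *Fabp7* and *Pdgfra* are printed singly and the others as counts and sums. A further gene that the rule names is not reported here. Alternatives were TPM, rescaled libraries, a pseudocount of 0.1, other minimum levels and left-out libraries or replicates, with coverage added after seeing the data. RefSeq windows (GRCr8) were searched for exact letters. Python 3.11.15, pandas 2.3.3, numpy 2.4.6 and matplotlib 3.10.9 were used.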

Additional observations from a re-analysis of the deposited data

Results flagged for a closer look

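Of 10 values over the 4 libraries, 6 gene levels and 4 ratios, 2 had a library set apart from the others, by a gap to its neighbour over the whole range above Dixon's critical value for 4 samples; chance gives about 1 in 20 for 4 independent samples, which these pairs of technical libraries from 2 replicates are not. The first was the FPKM of *Uhrf1*, where the gap of library B2 (7.73 FPKM) to the next library took up 0.926 of the range. The second was the log2 ratio of *Dnmt1* to *Uhrf1*, where B2 (1.46) was separated by 0.867 of the range from libraries between 2.39 and 2.53. Both rest on the same *Uhrf1* value of the shallowest library.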

How the results depend on the processing

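No paired analysis was possible because there is 1 condition and no result comes from a test. Of 153 values recomputed under alternatives for 34 results, 139 stayed within the spread of the libraries or replicates, or within 1.5 times their count, and 14 moved. Of 42 recomputed log2 differences of B from A, 2 changed sign: *Mbd2* without B2 (-0.13) and *Dnmt3a* without B1 (0.03); with all libraries both overlapped. TPM, rescaling, a pseudocount of 0.1 and other minimum levels account for 0 of the 14. Several of these settings could hardly move their results. TPM leaves a ratio of genes within a library unchanged, and a pseudocount cannot change whether libraries overlap. The rescaling factors were only 0.974 to 1.004. By deposited coverage in place of FPKM, an alternative chosen after seeing the data, the log2 ratio of *Dnmt3a* to *Dnmt3b* was 0.91, that of *Dnmt1* to *Dnmt3a* was 2.25, and the order of the 6 genes held in 2 of 4 libraries. Without library B2 the log2 ratio of *Dnmt3a* to *Dnmt3b* was 1.59, that of *Mbd3* to *Mbd2* was 1.56 and the mean of *Mbd2* was 51.4 FPKM. Without B2, 20 other genes of the 5 lists were higher in B and 20 higher in A, beside 40.3% and 43.8% of all genes, and 0 in either direction with a log2 difference of at least 1, beside 3.67% and 1.82%. With each of the 4 libraries left out in turn, 2 to 4 of the 6 genes were higher in B without overlap, 0 to 2 higher in A, and 0 to 1 higher in B by a log2 difference of at least 1, beside 33.2% to 40.7%, 39.4% to 47.4% and 3.67% to 6.35% of all genes. Fewer libraries overlap less often by construction, and *Dnmt1* and *Mbd3*, which did not overlap with all libraries, could not come to overlap. A replicate left out of 2 moves a mean by less than 1 SD by construction, so those settings show nothing of stability. All log2 differences of B from A with 1 library left out were also counted among the 139. They include *Uhrf1* at 0.05 without B2, from 0.71, and *Dnmt3a* at 0.03 without B1, from -0.34. The spread was wide enough to hold a change of sign, so these counts show nothing of stability either. Depth limits *Dnmt3b* most, at a coverage of 10.8 in B2.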
